A study of Mus musculus with 6 samples.

Results

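Deubiquitinases are the proteases that remove ubiquitin from other proteins, and 58 genes of this kind were followed in pre-B cells sorted from the bone marrow of Mef2c-deficient and control mice. The genes were chosen by symbol: the ubiquitin-specific proteases (Usp), the ubiquitin C-terminal hydrolases (Uchl), the ovarian tumour proteases named Otub or Otud, and Bap1, Cyld and Tnfaip3. Usp18, Usp9x and Usp9y were left out. The 58 genes are part of 17372 genes with a probe set that carries a single gene symbol, and a gene with several probe sets was represented by the one with the highest mean level. A filter on dim probe sets (mean log2 over the arrays above 7.26, the 40th percentile) left 50 of the 58 genes among the 11271 genes tested. Usp6nl, which encodes a GTPase-activating protein of Rab proteins, and Usp46os2, a noncoding RNA from the strand opposite Usp46, match by name only, so that 56 of the genes, and 48 of those tested, encode proteins of the deubiquitinase families.

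Ubiquitin is attached to proteins by a cascade of E1, E2 and E3 enzymes, as single units or as chains whose linkage sets the fate of the target, and deubiquitinases cut it off again. Chains linked through lysine 48 send proteins to the proteasome, whereas chains linked through lysine 63 or head to tail assemble signalling complexes, such as those that activate NF-kB, and single ubiquitins mark histones and the replication clamp PCNA. In developing B cells, cell division and the breaks made during antigen receptor rearrangement both depend on ubiquitin signals, and Cyld and A20, the product of Tnfaip3, are known as brakes on NF-kB in lymphocytes.

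The study asked which pathways MEF2C, a MADS box transcription factor, controls in B-cell progenitors. Gene expression was measured on 6 Affymetrix arrays, with 3 arrays of Mef2c-deficient and 3 of control pre-B cells, all from mice 9 months of age. The Mef2c-deficient mice were Vav-Cre Mef2cfl/fl, in which Cre is made throughout blood-forming cells, so that deletion is not limited to B cells. The controls were, per the study's methods, Mef2cfl/fl, Mef2cfl/+ or Vav-Cre Mef2cfl/+ mice of the same age, and which of these each control array came from is not given in the sources used here. Pre-B cells were sorted as B220+IgM-CD43- cells. The samples are called independent, but no source names the animals, so that every p-value given here is set by the spread among these samples, which may be technical. The deleted gene, Mef2c, was not analysed here and cannot serve to check the labels.

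All values are log2 of the deposited value, and each difference is Mef2c-deficient minus control on that scale. The base of the deposited exponent is not settled: the highest deposited value, 2144602, is 21.03 as log2 and 14.58 as a natural log. If the base was e, each log2 difference is 0.69 times the printed value, with the same direction and p. In sorted cells measured in bulk, fewer cells of a type and less RNA per cell cannot be told apart.

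Most deubiquitinase genes had a lower mean in the Mef2c-deficient cells, but none passed the adjusted threshold. Of the 50 genes tested, 43 had a lower and 7 a higher mean in Mef2c-deficient cells, so that 86% were lower, against 62.3% of all genes tested. The median log2 difference was -0.85 over the 50 genes and -0.36 over all genes tested. Single differences ran between -2.13 for Otud3 and 0.75 for Cyld. With limma and Benjamini-Hochberg adjustment over all genes, 0 of the 50 had an adjusted p under 0.05, where 2 of the 11271 genes (0.0177%) did. The smallest adjusted p among the 50 was 0.0769, for Usp1.

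At an unadjusted limma p under 0.05, 19 genes (38%) were lower in Mef2c-deficient cells, against 20.9% of all genes, and 1 (2%), Cyld, was higher, against 5.32% of all genes. Every Mef2c-deficient array lay below every control array in 25 genes (50%), against 27.1% of all genes. The groups were apart in the other direction in 3 genes (6%), Cyld, Usp20 and Usp13, against 10.6% of all genes. Of these, Usp20 passed the filter only through the Mef2c-deficient arrays, with a mean of 7.68 there and 6.93 in controls. At an unadjusted p of 0.05 or less together with a difference of at least 2-fold, 12 genes (24%) were lower, against 14.7% of all genes, and 0 were higher, against 2.64%. If the base was e, 2 genes, Usp1 and Bap1, passed both criteria as lower, against 5.83% of all genes, and 0 as higher, against 1% of all genes.

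These counts depended on how the arrays were scaled. The distance of the deubiquitinase genes below the other genes shrank under the scalings that could change it. Scaling moved the median of all genes, which was -0.36 as deposited, to -0.10 with quantile normalization, -0.04 with cyclic loess, -0.07 with each array centred on its kept probe sets and 0.10 with each array centred on the genes tested. The median of the 50 deubiquitinase genes under these scalings was -0.44, -0.39, -0.56 and -0.39. As deposited, the median of the 50 genes lay 0.50 below that of all genes. The distance (deubiquitinase genes minus all genes) was -0.34 with quantile normalization and -0.35 with cyclic loess. Centring shifts every gene on an array alike, so that the distance of -0.50 under both centrings was fixed in advance. The genes with an unadjusted p under 0.05 were 6 lower and 1 higher with quantile normalization, 4 lower and 1 higher with cyclic loess, 6 lower and 3 higher when centred on kept probe sets, and 2 lower and 6 higher when centred on the genes tested. The share of lower genes under these 4 scalings was 12%, 8%, 12% and 4% of the 50, against 11.1%, 10.2%, 10.7% and 6.48% of all genes, which is near the background. The share of higher genes was 2%, 2%, 6% and 12% of the 50, against 7.22%, 8.26%, 14.0% and 20.2% of all genes. Counts of means changed less, with 41, 41, 42 and 39 of the 50 genes lower in Mef2c-deficient cells. The share of all genes with a lower mean was 62.3% as deposited and is not given here for these scalings, so that these counts have no background beside them.

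**Figure D1:**
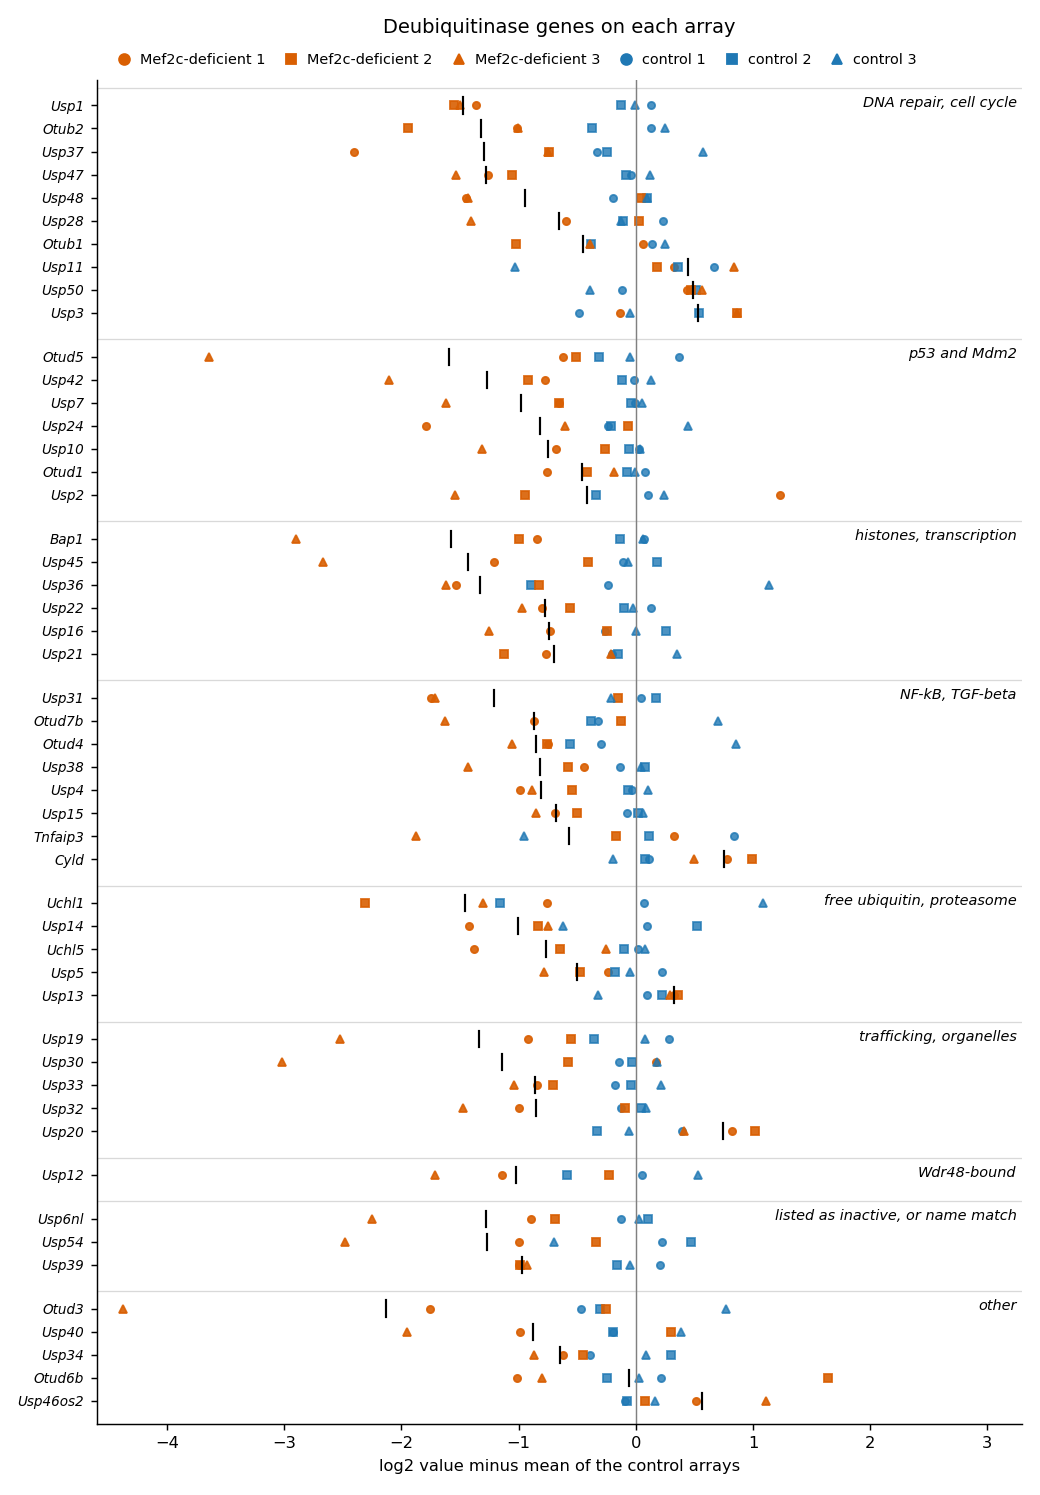
Each row is a deubiquitinase gene that passed the filter, grouped by role, and each point is an array, plotted as the distance of its log2 value from the control mean (orange, Mef2c-deficient; blue, control; the bar marks the Mef2c-deficient mean). The Mef2c-deficient mean lies below 0 in 43 of the 50 rows, with Mef2c-deficient replicate 3 farthest left in many of them; under the other scalings 39 to 42 rows lie below 0.

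The arrays of the Mef2c-deficient group differed in how low the deubiquitinase genes were. Relative to the control mean, the median of the 50 genes was -0.79, -0.49 and -1.28 on Mef2c-deficient replicates 1, 2 and 3, against 0.01, -0.09 and 0.06 on control replicates 1, 2 and 3. Over all genes tested the same medians were -0.37, -0.21 and -0.24 on the Mef2c-deficient arrays and -0.01, -0.07 and 0.07 on the control arrays. Replicate 3 was thus the lowest Mef2c-deficient array for the deubiquitinase genes but not for genes at large. Of the 50 genes, 31 had their lowest Mef2c-deficient value on replicate 3, 12 on replicate 1 and 7 on replicate 2. The range over the 3 arrays was wider in the Mef2c-deficient group in 37 of the 50 genes, with a median range of 1.04 on the Mef2c-deficient arrays and 0.492 on the control arrays (0.982 and 0.579 over all genes tested).

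Markers of several other cell types were highest on the same array. Relative to the control mean, the median of 8 plasmacytoid dendritic cell markers was 0.69, 0.95 and 3.37 on Mef2c-deficient replicates 1, 2 and 3, against -0.49, -0.42 and 0.70 on the control arrays. All 8 had higher means in Mef2c-deficient cells, and their summed level was 18.67 to 20.40 on the log2 scale in Mef2c-deficient cells and 17.26 to 18.77 in controls. Their median log2 difference was 1.46, and 0.72 without Mef2c-deficient replicate 3, when 1 of the 8 had a lower mean. Of 9 neutrophil markers, the 8 tested had higher means too, with a summed level of 15.49 to 20.30 in Mef2c-deficient cells and 15.06 to 17.45 in controls, and Elane was not past the filter. The median log2 difference of these 8 was 1.30, but -0.43 without Mef2c-deficient replicate 3, when 6 of the 8 had lower means, so that their direction rested on that array. The summed levels of monocyte, T-cell, NK-cell and erythroid markers were likewise highest on Mef2c-deficient replicate 3, although Adgre1, Ccr2, Cd3g, Cd8a, Gzmb, Ncr1, Car1 and Hba-a1 among them were not past the filter. The 5 plasma cell markers had no common direction: 3 had lower means, with Sdc1 (-2.36) and Slamf7 (-2.15) among them. The other 2, Xbp1 (0.78) and Jchain (0.46), had higher means. The median of the 5 markers was lowest on replicate 3 (-1.0, with -0.43 and 0.12 on Mef2c-deficient replicates 1 and 2). On the control arrays it was 0.12, -0.17 and 0.17. Their summed level, however, was lowest on Mef2c-deficient replicate 1 (15.76, with 16.14 on replicates 2 and 3, against 16.38 to 16.69 in controls). The median of 5 markers of later B cells was highest on replicate 2 (0.82). Early B-cell markers summed to 19.72 to 20.45 in Mef2c-deficient cells and 20.28 to 20.63 in controls. Of 8 early B-cell markers tested, 7 had lower means and 1 a higher one (0.32). Their median log2 difference was -0.89 (-0.45 without Mef2c-deficient replicate 3). Ebf1 (-1.15) and Rag1 (-1.18), or 25%, were lower with groups that did not overlap, against 27.1% of all genes. Igll1 (-1.09) and Dntt (-1.46), with overlapping groups, had their highest Mef2c-deficient value on replicate 3, where Ebf1 and Rag1 had their lowest. The part of these markers in the deubiquitinase values was not tested. Without Mef2c-deficient replicate 3, the median of the 50 genes was -0.66 (all genes -0.32), and the genes past an unadjusted p of 0.05 were 16 lower (32%) and 2 higher (4%), against 23.7% and 7.07% of all genes.

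Genes of cell division had another order over the arrays. The median of 29 genes of mitosis was -1.39, -2.79 and -1.59 on Mef2c-deficient replicates 1, 2 and 3, against 0.28, 0.05 and -0.30 on the control arrays. The median of 28 genes of DNA replication was -1.31, -2.14 and -1.08 on the Mef2c-deficient arrays, against -0.05, -0.05 and 0.05 on the control arrays. Both lists were lowest on Mef2c-deficient replicate 2, the array on which the deubiquitinase genes were the least low.

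**Figure D2:**
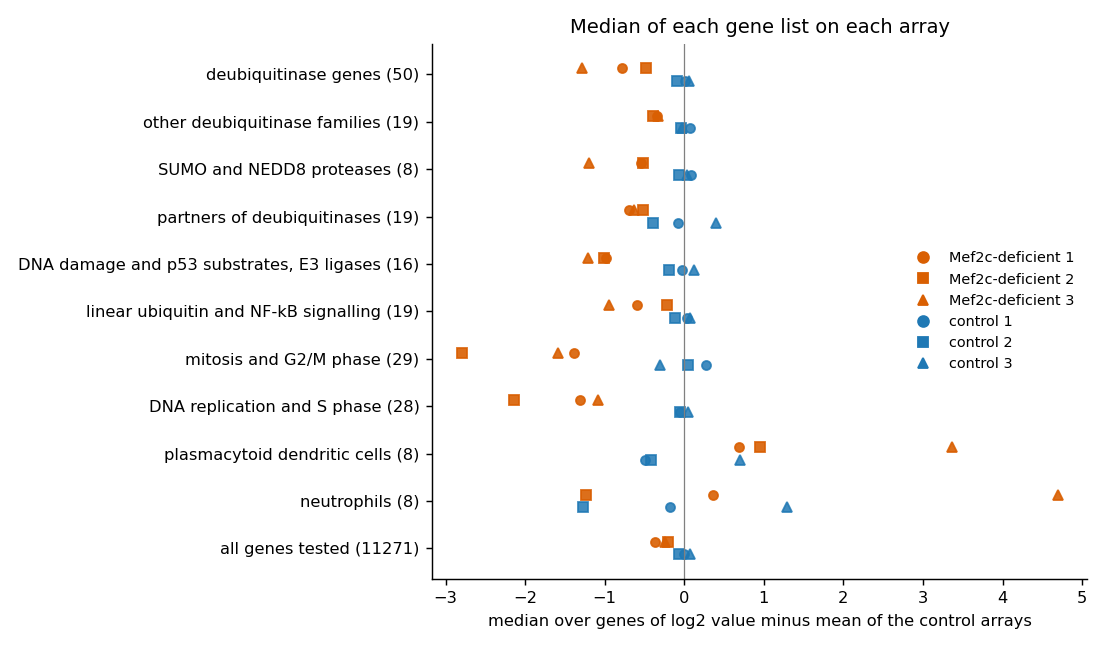
Each point is the median over a gene list, on an array, of the log2 value minus the control mean (orange, Mef2c-deficient; blue, control; number of genes in brackets). The deubiquitinase genes are lowest on Mef2c-deficient replicate 3 (-1.28), the mitosis genes on replicate 2 (-2.79), and the plasmacytoid dendritic cell markers are highest on replicate 3 (3.37).

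The sequence before the start of these genes was read from RefSeq promoters (build GRCm38.p6), which had an entry for 47 of the 58 genes and for 41 of the 50 tested. The 11 without an entry were Usp1, Usp5, Usp14, Usp22, Usp33, Usp39, Usp42, Usp43, Usp44, Otud6b and Otud7b. Several genes of smallest p, with Usp1 among them, were therefore not searched for any motif. In windows of 250 bases before the start, on both strands, a match to the MEF2 consensus was found in 1 of 46 windows of tested deubiquitinase genes (2.17%), against 1.54% of 11494 windows of all genes tested. CCAAT, the NF-Y box, was in 23.9% of the windows of deubiquitinase genes and 35% of all windows. CACGTG, the E-box bound by Myc and USF proteins, was in 17.4% and 8.14%. CCGGAAG, a core of Ets family sites, was in 15.2% and 13%. The motifs were chosen with these shares known, and the shares are descriptions. The single MEF2 match was in Usp13, which had higher values in Mef2c-deficient cells. The 8 genes with CACGTG were Bap1, Otud1, Otud3, Tnfaip3, Usp16, Usp31, Usp4 and Usp6nl. Each had a lower mean as deposited, as did 43 of the 50 genes tested (86%). A link between motif and difference was not tested.

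The windows of 4 genes are shown because they stand for the patterns above: Usp47 and Bap1 had lower values in Mef2c-deficient cells with no overlap, and Cyld and Usp13 higher values with no overlap. Capitals mark motif matches on either strand (CCAAT reads ATTGG on the other strand). Usp47 (chr7:112023256-112023505, plus strand) holds none of the 4 motifs, Bap1 (chr14:31251239-31251488, plus strand) holds CACGTG at position -143 from the start, Cyld (chr8:88696778-88697027, plus strand) holds CCAAT at 4 places, and Usp13 (chr3:32817376-32817625, plus strand) holds the MEF2 match at position -66 beside a CCAAT box.
Usp47: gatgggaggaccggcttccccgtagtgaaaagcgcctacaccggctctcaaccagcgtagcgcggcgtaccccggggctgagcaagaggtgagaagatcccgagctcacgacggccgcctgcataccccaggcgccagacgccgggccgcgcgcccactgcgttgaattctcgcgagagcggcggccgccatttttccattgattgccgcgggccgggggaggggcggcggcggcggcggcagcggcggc
Bap1: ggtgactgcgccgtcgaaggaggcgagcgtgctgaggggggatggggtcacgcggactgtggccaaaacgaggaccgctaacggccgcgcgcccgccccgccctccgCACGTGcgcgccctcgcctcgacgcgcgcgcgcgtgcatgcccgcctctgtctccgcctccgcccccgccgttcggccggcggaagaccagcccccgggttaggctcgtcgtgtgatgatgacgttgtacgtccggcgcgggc
Cyld: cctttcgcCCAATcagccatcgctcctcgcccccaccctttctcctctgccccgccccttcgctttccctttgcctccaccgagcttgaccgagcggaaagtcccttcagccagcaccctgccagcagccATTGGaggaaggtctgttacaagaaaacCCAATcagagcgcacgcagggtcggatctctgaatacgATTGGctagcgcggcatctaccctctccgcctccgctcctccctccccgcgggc
Usp13: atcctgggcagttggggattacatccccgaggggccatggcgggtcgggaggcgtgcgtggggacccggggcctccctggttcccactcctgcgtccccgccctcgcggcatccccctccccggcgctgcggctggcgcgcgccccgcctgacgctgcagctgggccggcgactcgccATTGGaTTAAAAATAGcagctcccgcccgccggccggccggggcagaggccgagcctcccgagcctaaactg

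The counts by role below are set against the same shares of all genes, 20.9% lower and 5.32% higher as deposited. Under the 4 other scalings 6.48% to 11.1% of all genes were lower and 7.22% to 20.2% higher. The genes that act on DNA repair, replication and the cell cycle included Usp1, the member with the smallest p. Of 10 genes tested, an unadjusted p under 0.05 was reached by 4 lower ones (Usp1, Usp47, Otub2 and Usp37), or 40%, and 0 higher ones, and the median log2 difference was -0.80. Under the 4 scalings 2 or 3 were lower and 0 to 2 higher. Usp1, which with its partner Wdr48 removes ubiquitin from PCNA and from the Fanconi anaemia proteins Fancd2 and Fanci, had log2 values of 13.88, 13.70 and 13.74 on the Mef2c-deficient arrays, against 15.38, 15.12 and 15.24 on the control arrays. The groups were well apart and tight, with a log2 difference of -1.47 with an SE of 0.26 (limma adjusted p = 0.0769), or 2.78-fold as deposited and 2.03-fold on the base of e. Over the alternatives run, the difference of Usp1 lay between -1.55 and -0.98 and its adjusted p between 0.0180 and 0.340. Usp47, which acts on the base excision repair polymerase Polb, had values of 11.79, 11.99 and 11.51 on the Mef2c-deficient arrays, against 13.01, 12.96 and 13.17 on the control arrays. Its arrays did not overlap either (log2 difference -1.28, SE 0.27; limma adjusted p = 0.0934).

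Otub2, which limits ubiquitin chains at DNA breaks, had log2 values of 13.83, 12.91 and 13.84 on the Mef2c-deficient arrays, against 14.98, 14.47 and 15.10 on the control arrays. Replicate 2 was the lowest array in both groups, the groups did not overlap, and the log2 difference was -1.32 (SE 0.37; limma adjusted p = 0.115). Usp37, which promotes entry into S phase, had a log2 difference of -1.30 and was far lower on Mef2c-deficient replicate 1 (8.95) than on replicates 2 and 3 (10.61 and 10.61). Usp48, which trims ubiquitin from histone H2A at sites modified by Brca1, Usp28, which acts on the checkpoint protein Claspin, and Otub1, which blocks the E2 enzyme of lysine 63 chains, had log2 differences of -0.94, -0.66 and -0.45, all with overlapping groups. Otub1 turned slightly positive with quantile normalization, cyclic loess and centring on the genes tested.

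The remaining genes of this role, Usp3, Usp11 and Usp50, had higher means. Usp3, which removes ubiquitin from histone H2A, had log2 values of 11.54, 12.54 and 12.55 on the Mef2c-deficient arrays, against 11.19, 12.22 and 11.63 on the control arrays. The groups overlapped (log2 difference 0.53, SE 0.41; limma adjusted p = 0.384), and another probe set of Usp3 had a difference of -0.54, so that the direction of Usp3 depends on the probe set. Usp50 had values of 9.06, 9.09 and 9.19 on the Mef2c-deficient arrays, against 8.51, 9.14 and 8.23 on the control arrays. Its Mef2c-deficient values were nearly equal and lay close to the highest control value (log2 difference 0.49, SE 0.32; limma adjusted p = 0.315). Usp11, which acts on the homologous recombination factors Brca2 and Palb2, had log2 values of 12.37, 12.23 and 12.88 on the Mef2c-deficient arrays, against 12.71, 12.41 and 11.02 on the control arrays. Its difference of 0.45 rested on control replicate 3 and turned negative without that array.

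All 7 tested genes that act on p53 and its E3 ligase Mdm2 had lower means in Mef2c-deficient cells as deposited, with a median log2 difference of -0.82, and 5 to 7 had lower means under the other scalings. At an unadjusted p under 0.05, 2 were lower (Usp42 and Usp7), or 28.6% against 20.9% of all genes, and 0 higher, and 0 or 1 were lower under the scalings. Usp7, a deubiquitinase of both Mdm2 and p53, had log2 values of 14.64, 14.64 and 13.69 on the Mef2c-deficient arrays, against 15.30, 15.26 and 15.36 on the control arrays. The control arrays lay within 0.096 of each other, the Mef2c-deficient arrays were all below them with replicate 3 the lowest, and the log2 difference was -0.98 (SE 0.34; limma adjusted p = 0.148). Without Mef2c-deficient replicate 3 the difference of Usp7 was -0.66. Usp42, which removes ubiquitin from p53, had values of 10.77, 10.62 and 9.44 on the Mef2c-deficient arrays, against 11.53, 11.43 and 11.68 on the control arrays. Here too replicate 3 was the lowest and the groups did not overlap (log2 difference -1.27, SE 0.40; limma adjusted p = 0.133).

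Otud1, which has been linked to p53 and to antiviral signalling, had log2 values of 14.92, 15.26 and 15.49 on the Mef2c-deficient arrays, against 15.76, 15.61 and 15.68 on the control arrays. The groups were apart by a small margin and replicate 3 was the highest Mef2c-deficient array, unlike in most of the family. The log2 difference of Otud1 was -0.46 (SE 0.28; limma adjusted p = 0.295), and centring on the genes tested left 0.01. Otud5, a deubiquitinase of p53 and of the signalling adaptor Traf3, had values of 11.94, 12.05 and 8.92 on the Mef2c-deficient arrays, against 12.93, 12.25 and 12.51 on the control arrays. Its log2 difference of -1.59 came mostly from replicate 3, without which it was -0.57. Usp10, Usp24 and Usp2 had log2 differences of -0.75, -0.82 and -0.42, and Usp2, dim on these arrays, turned positive without Mef2c-deficient replicate 3 (0.14) and when centred on the genes tested.

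The 6 tested genes grouped under histones and transcription all had lower means in Mef2c-deficient cells, as deposited and under each of the 4 other scalings. Usp45 is listed here beside its relative Usp16, and an action of Usp45 on histones was not tested. At an unadjusted p under 0.05, 4 were lower (Bap1, Usp45, Usp36 and Usp22), or 66.7% against 20.9% of all genes, and the group had a median log2 difference of -1.05. Under the scalings 0 to 2 passed that threshold. Bap1, which with the Asxl proteins removes the Polycomb mark from histone H2A and is a tumour suppressor in humans, had log2 values of 12.77, 12.62 and 10.72 on the Mef2c-deficient arrays, against 13.69, 13.48 and 13.68 on the control arrays. All 3 Mef2c-deficient arrays were lower than the controls, replicate 3 by far the most. The log2 difference of Bap1 was -1.58 (SE 0.55; limma adjusted p = 0.145), and -0.92 without replicate 3. Usp22, the deubiquitinase subunit of the SAGA coactivator complex, had values of 12.37, 12.61 and 12.19 on the Mef2c-deficient arrays, against 13.29, 13.07 and 13.14 on the control arrays. The arrays of Usp22 agreed closely within each group, and its log2 difference was -0.78 (SE 0.27; limma adjusted p = 0.147).

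Usp45 and Usp16, which are close relatives, had log2 differences of -1.43 and -0.74. Usp16 removes ubiquitin from histone H2A during mitosis, and its groups overlapped, whereas those of Usp45 did not. Usp36, a nucleolar deubiquitinase, had a log2 difference of -1.33 in which both groups varied, with log2 values of 8.76, 9.47 and 8.67 on the Mef2c-deficient arrays, against 10.05, 9.39 and 11.43 on the control arrays. Usp21 had a log2 difference of -0.70 with no overlap, and its lowest Mef2c-deficient value was on replicate 2.

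Among the 8 tested genes of NF-kB, TGF-beta and immune signalling, 7 had lower means in Mef2c-deficient cells and Cyld a higher one. At an unadjusted p under 0.05, 4 (Usp4, Usp31, Usp15 and Usp38) were lower, or 50% against 20.9% of all genes, and 1 (Cyld) higher, and the median log2 difference was -0.81. The lower ones numbered 0 under each of the 4 scalings and 1 without Mef2c-deficient replicate 3. Cyld, which cuts lysine 63 and linear chains from regulators of NF-kB, had log2 values of 8.09, 8.30 and 7.81 on the Mef2c-deficient arrays, against 7.43, 7.39 and 7.13 on the control arrays. Every Mef2c-deficient array was above every control array, with a log2 difference of 0.75 and an SE of 0.28 (limma adjusted p = 0.158), or 1.69-fold as deposited. Over the alternatives run the difference of Cyld stayed positive, between 0.51 and 1.22, but its unadjusted p reached 0.0908. Tnfaip3, which encodes the ubiquitin-editing enzyme A20, had values of 11.08, 10.58 and 8.88 on the Mef2c-deficient arrays, against 11.59, 10.87 and 9.79 on the control arrays. Both groups ran over a wide range, replicate 3 was the lowest array in each, and the groups overlapped. The log2 difference of Tnfaip3 was -0.57 (SE 0.67; limma adjusted p = 0.546), and without Mef2c-deficient replicate 3 it was 0.08.

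Usp4 and Usp15, close relatives that act on TGF-beta receptors and Smad proteins, had log2 differences of -0.81 and -0.68. For Usp4 the log2 values were 13.11, 13.55 and 13.21 on the Mef2c-deficient arrays, against 14.07, 14.03 and 14.20 on the control arrays. The groups of Usp4 did not overlap (SE 0.27; limma adjusted p = 0.140), and neither did those of Usp15. Usp31, Otud7b, Otud4 and Usp38, of which Otud7b acts on Traf3 and Usp38 on the kinase Tbk1, had log2 differences of -1.21, -0.87, -0.86 and -0.82. Of these, Otud4 and Usp38 had groups that did not overlap.

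The genes that handle free ubiquitin and the proteasome were lower in 4 of 5 cases, with a median log2 difference of -0.76, and 1 (Usp14) was lower at an unadjusted p under 0.05, or 20% against 20.9% of all genes. This count was 0 under each of the 4 scalings and 2 without Mef2c-deficient replicate 3. Usp14 and Uchl5, which bind the proteasome and trim ubiquitin from its substrates, had log2 differences of -1.0 and -0.76, each with no overlap. Uchl5 was lowest on Mef2c-deficient replicate 1 (12.81, against 13.54 and 13.94 on replicates 2 and 3), while its controls lay between 14.09 and 14.27. Uchl1, best known from neurons, had a log2 difference of -1.46 with overlapping and widely spread groups. Usp5, which takes apart unanchored chains, and its close relative Usp13 had log2 differences of -0.50 and 0.32, each with groups that did not overlap, in opposite directions. Their limma adjusted p-values were 0.277 and 0.427.

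Of 5 genes that act on membrane trafficking and organelles, 4 had lower means, with a median of -0.86, and 2 (Usp33 and Usp19) were lower at an unadjusted p under 0.05, or 40% against 20.9% of all genes. Under each of the 4 scalings 0 were lower, and without Mef2c-deficient replicate 3, 1 was lower and 1 higher. Usp33 had log2 values of 11.24, 11.37 and 11.04 on the Mef2c-deficient arrays, against 11.90, 12.04 and 12.29 on the control arrays. The groups did not overlap (log2 difference -0.86, SE 0.27; limma adjusted p = 0.133). Usp20, a close relative of Usp33 that shares with it a role in receptor recycling, had values of 7.75, 7.95 and 7.34 on the Mef2c-deficient arrays, against 7.33, 6.60 and 6.87 on the control arrays. Its groups just failed to touch, in the direction opposite to Usp33, with a log2 difference of 0.75 and an SE of 0.32 (limma adjusted p = 0.193). Usp20 was also the dimmest of the 50 genes to pass the filter, with a mean of 7.31, just inside the limit, whereas Usp29, with 7.25, lay just outside. The control mean of Usp20 was 6.93, below the limit, so that it passed only through the group in which it was higher. Usp19, anchored in the endoplasmic reticulum, Usp30, anchored in the outer mitochondrial membrane, and Usp32 had log2 differences of -1.33, -1.14 and -0.85. Each was lowest on Mef2c-deficient replicate 3, and without that array the difference of Usp30 was -0.21.

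The 3 tested genes listed as inactive proteases (Usp39 and Usp54) or matched by name only (Usp6nl) had lower means with a median of -1.27. Usp39, a splicing factor that lacks the catalytic residues, had log2 values of 11.19, 11.20 and 11.26 on the Mef2c-deficient arrays, against 12.39, 12.03 and 12.14 on the control arrays. Its Mef2c-deficient arrays were nearly identical and all below the controls (log2 difference -0.97, SE 0.26; limma adjusted p = 0.111). Usp6nl had values of 10.95, 11.15 and 9.59 on the Mef2c-deficient arrays, against 11.72, 11.94 and 11.87 on the control arrays. Replicate 3 was again the lowest, with no overlap (log2 difference -1.28, SE 0.44; limma adjusted p = 0.145). The groups of Usp54, with a log2 difference of -1.27, overlapped.

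Of the other genes, Usp46os2 had log2 values of 9.18, 8.74 and 9.77 on the Mef2c-deficient arrays, against 8.57, 8.59 and 8.83 on the control arrays. The groups overlapped (log2 difference 0.57, SE 0.34; limma adjusted p = 0.283). Otud3 had the most negative difference of the family, -2.13, and a spread to match: its values were 10.11, 11.62 and 7.49 on the Mef2c-deficient arrays, against 11.40, 11.56 and 12.64 on the control arrays. The limma adjusted p of Otud3 was 0.204, and a dimmer probe set of the gene differed by -0.32. Usp12, which like Usp1 works bound to Wdr48, had a log2 difference of -1.03 with overlapping groups. Usp40 and Usp34 had differences of -0.88 and -0.65, and Otud6b, at -0.06, had arrays on both sides of the controls, with 13.37 on Mef2c-deficient replicate 2 and 10.71 and 10.93 on replicates 1 and 3.

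**Figure D3:**
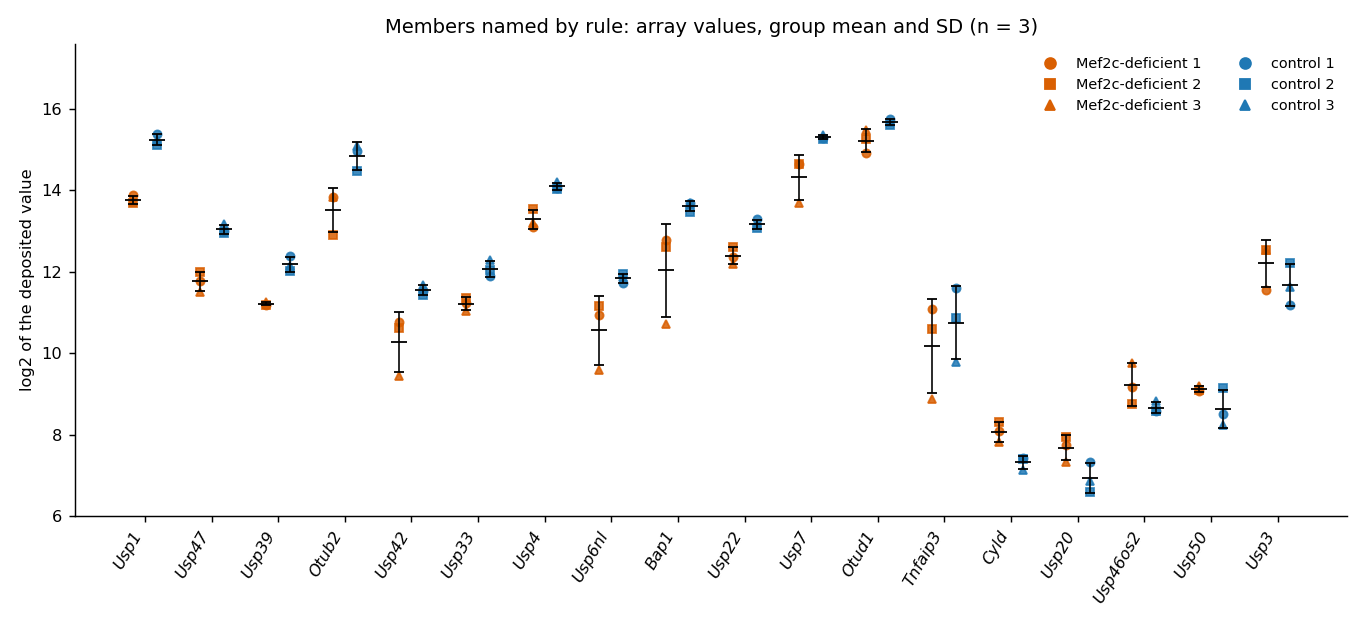
Log2 of the deposited value of 18 deubiquitinase genes on each array (orange, Mef2c-deficient; blue, control), with group means and SD (n = 3 each). Usp1, Usp47 and Usp39 have tight groups far apart (log2 differences of -1.47, -1.28 and -0.97). Bap1, Usp42 and Usp6nl are below the controls on every Mef2c-deficient array and lowest on replicate 3. Cyld and Usp20 are higher in Mef2c-deficient cells (0.75 each).

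The 8 genes that did not pass the filter were Otud7a, Uchl4, Usp17la, Usp26, Usp27x, Usp29, Usp43 and Usp44. They were not tested. Of these, 6 had higher means in Mef2c-deficient cells, and the log2 differences ran between -1.77 for Usp27x and 1.06 for Usp17la. Usp17la and Uchl4 belong to groups of near-identical gene copies, which a probe set may not tell apart.

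Close relatives within the family did not always lie on the same side. The relatives Usp36 and Usp42 had log2 differences of -1.33 and -1.27, Usp7 and Usp47 of -0.98 and -1.28, Usp16 and Usp45 of -0.74 and -1.43, Otub1 and Otub2 of -0.45 and -1.32, and Uchl5 and Bap1 of -0.76 and -1.58. In contrast, Usp20 and Usp33 differed by 0.75 and -0.86, Usp13 and Usp5 by 0.32 and -0.50, and Usp11 by 0.45 where Usp4 and Usp15 differed by -0.81 and -0.68. Among these, Usp20 had passed the filter only through its Mef2c-deficient values. No difference between relatives was tested.

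The difference also varied with the level of the gene. Across genes, Spearman's rho between mean level and difference was -0.239 over the 50 deubiquitinase genes and -0.320 over all genes tested. Genes share arrays and are not independent replicates, and both quantities come from the same 6 arrays. When all genes tested were placed in 10 bins of equal number by level, 41 of the 50 deubiquitinase genes lay below the median of their bin. From the dimmest bin up, that median was 0.31 (the bin of Cyld and Usp20), 0.33 (Usp13) and 0.20 (Usp46os2 and Usp50). Among genes with a mean log2 above 12, 10 of 21 deubiquitinase genes (47.6%) were lower in Mef2c-deficient cells at an unadjusted p under 0.05, against 25.4% of all genes at that level. At 12 or less, 9 of 29 (31.0%) were, against 18.9% of all genes.

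**Figure D4:**
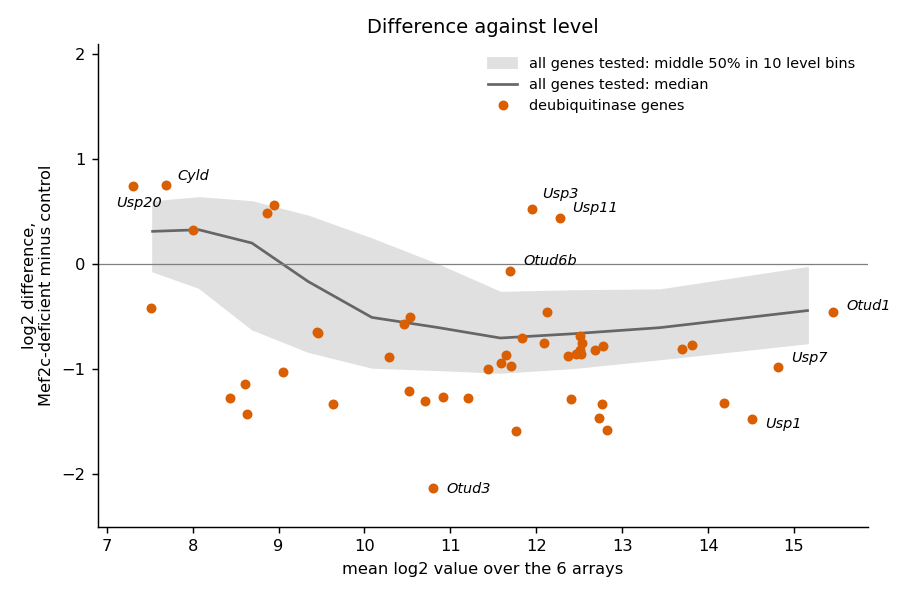
Each orange point is a deubiquitinase gene, with its mean log2 value over the 6 arrays on the horizontal axis and its log2 difference (Mef2c-deficient minus control) on the vertical axis. The grey line and band give the median and the middle 50% of all genes tested in 10 level bins; 41 of the 50 points lie below the median of their bin.

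Genes that work with the deubiquitinases had mostly lower means in Mef2c-deficient cells as deposited, and their counts at an unadjusted p under 0.05 are set against the 20.9% of all genes that were lower and the 5.32% that were higher. Under the 4 scalings 6.48% to 11.1% of all genes were lower and 7.22% to 20.2% higher. Of 19 partners of deubiquitinases tested, an unadjusted p under 0.05 was reached by 5 lower (26.3%, near the share of all genes) and 0 higher ones, with a median log2 difference of -0.68. Under the 4 scalings 2 were lower and 0 to 2 higher, with medians of -0.39 to -0.16. Wdr48, the activating partner of Usp1 and Usp12, had log2 values of 8.95, 10.36 and 7.60 on the Mef2c-deficient arrays, against 11.21, 10.67 and 11.46 on the control arrays. Its groups did not overlap (log2 difference -2.14, SE 0.66; limma adjusted p = 0.129), so that both Usp1 and its partner had lower values on each Mef2c-deficient array than on any control array. Asxl1, a partner of Bap1, had a log2 difference of -0.99, the histone demethylase Kdm1b one of -1.19, and Stam2, an endosomal sorting protein that binds deubiquitinases, one of -1.78.

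The substrates and E3 ligases of the DNA damage and p53 pathways that deubiquitinases act on or oppose all had lower means, 16 of 16 as deposited and 15 or 16 under the other scalings. An unadjusted p under 0.05 was reached by 9 lower (56.3%) and 0 higher ones, and by 5 to 7 lower ones under the scalings. The median was -0.98 (-0.74 to -0.51 under the scalings). Brca1, the breast cancer E3 ligase of homologous recombination, had a log2 difference of -2.10, Clspn, the checkpoint adaptor on which Usp28 acts, one of -3.42, Rad18, which places on PCNA the ubiquitin that Usp1 removes, one of -1.53, and Fancd2 one of -1.76. None passed the adjusted threshold, and the smallest adjusted p in the list was 0.0745. Of 19 genes of linear ubiquitin and NF-kB signalling, 5 were lower (26.3%, near the share of all genes) and 0 higher, with a median of -0.60. Under the scalings 0 to 2 were lower, with medians of -0.31 to -0.14. The 4 with the smallest p were Tab1, Tax1bp1, Ikbkg and Traf6, with log2 differences of -1.01, -0.82, -0.89 and -1.22.

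The medians of the lists named for other protease families lay closer to 0 than that of the 50 genes. These lists are mixed, so that this does not set the 50 genes apart from other active deubiquitinases. Of 19 genes listed under other deubiquitinase families, 6 lower (31.6%, against 20.9% of all genes) and 0 higher ones reached an unadjusted p under 0.05. Among the lower ones, Atxn3, Mindy2, Otulin and Zranb1 had log2 differences of -0.96, -1.27, -1.17 and -0.98. Not every gene on this list is known to cut ubiquitin, so that the list does not stand for active deubiquitinases alone. Its single differences ran between -1.54 and 0.74, and the part of genes that do not cut ubiquitin in its median was not tested. Under the 4 scalings 1 to 4 were lower and 0 to 3 higher. Their median was -0.45, and -0.16 to 0.01 under the scalings, so that its sign depended on the scaling. The proteases of the ubiquitin-like proteins SUMO and NEDD8, 8 genes, had a median of -0.65 (-0.36 to -0.14), with Desi1 (-1.90) and Senp1 (-0.98) lower at an unadjusted p under 0.05. These 2 are 25% of the list, near the share of all genes, and 1 was lower under each scaling. Among 5 genes of ubiquitin-like precursors and E1 enzymes, the activating enzyme genes Uba3 (-1.49) and Sae1 (-1.12) were lower at that threshold (40% of the list, and 2 lower with 1 higher under each scaling), with a list median of -0.34 that lay between -0.05 and 0.15 under the scalings. No difference between these lists and the 50 genes was tested.

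Leaving out single arrays moved the counts in both directions. The number of deubiquitinase genes lower at an unadjusted p under 0.05 was 32 (64%, against 21.7% of all genes) without Mef2c-deficient replicate 2. It was 7 (14%, near the 12.4% of all genes) without control replicate 1 and 9 (18%, against 12.6%) without control replicate 3, where all arrays gave 19. The median difference stayed between -1.0 and -0.66. With array weights, 4 genes, Usp1, Usp47, Otub2 and Usp39, passed the adjusted threshold (limma adjusted p = 0.0180, 0.0299, 0.0334 and 0.0383), in a fit that called 1154 of the 11271 genes.

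**Figure D5:**
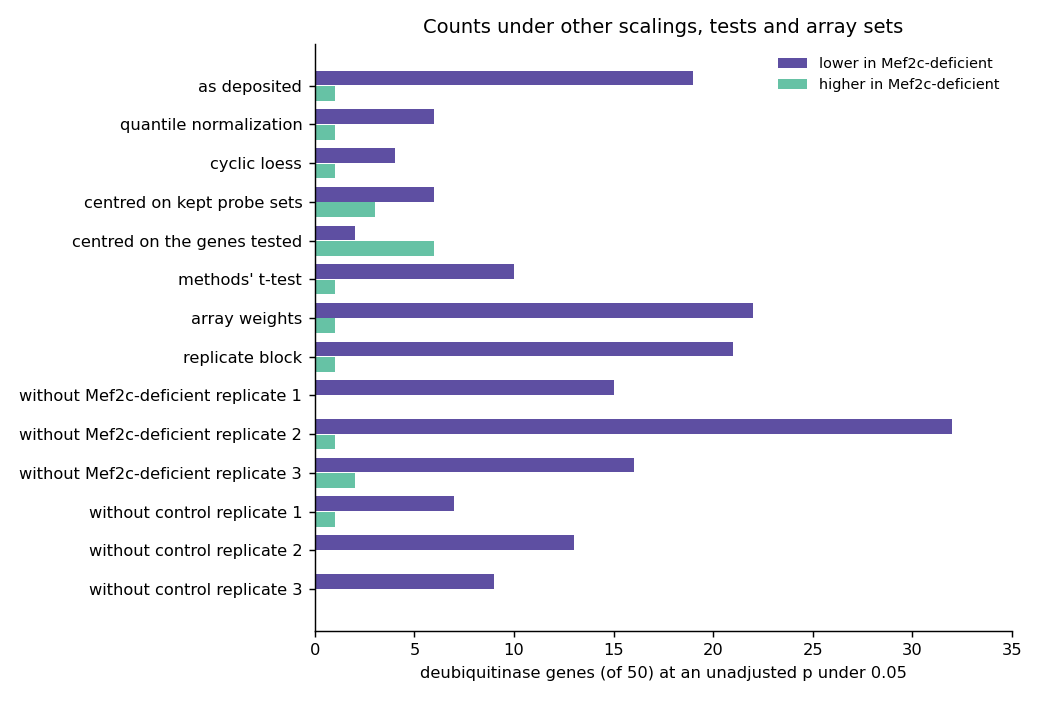
Number of deubiquitinase genes, of 50, with an unadjusted p under 0.05 that were lower (purple) or higher (green) in Mef2c-deficient cells, as deposited, under other scalings and tests, and with single arrays left out. The count of lower genes runs between 2, with arrays centred on the genes tested, and 32, without Mef2c-deficient replicate 2.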

How the data were processed

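Sorted pre-B cells of 3 Mef2c-deficient and 3 control samples were measured on Affymetrix mouse arrays. The authors deposited a table of linear intensity values for 23913 probe sets; per the study's methods these were background adjusted, quantile normalized and summarised by RMA, with limma as the test, while tool versions and a genome build were not given in the sources used here. Intensities were log2-transformed with no offset. Of the deposited values, 2.00% lay above 65535, the limit of a 16-bit scanner. Probe sets were named through the platform's annotation (17689 with 1 symbol, 524 with several, 5699 unnamed), and 57 of the 58 genes matched RefSeq by gene identifier. Control probe sets and those with several symbols or none were left out.

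All 11271 genes past the filter were fitted in limma (version 3.58.1, under R version 4.3.3; lmFit on group, then eBayes; two-sided; Benjamini-Hochberg over all genes). The scripts were tested on simulated data. Array values were given for the 10 genes with lower and the 5 with higher means of smallest p, the 3 of highest level, and Usp1, Usp7, Bap1, Cyld and Tnfaip3; Otud3, Otud5, Otud6b, Usp11, Usp36, Usp37, Uchl5 and Wdr48 were added after their values were seen. Of other lists, at most 4 genes of smallest p were named. The genes and lists were chosen with earlier results of these data known. Median deposited values were 277 to 285 on Mef2c-deficient and 236 to 268 on control arrays, and precision is limited by the small number of arrays. In all, 18 other settings of the filter, scaling, offset, test, probe set rule, pairing and arrays were run, and 1 more (centring on the genes tested) was chosen after seeing the data.

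Arrays that share a replicate number departed from their group means in like manner (r across genes of 0.348, 0.226 and 0.373; -0.309 to 0.129 for different numbers). No label says what the numbers stand for, and these correlations come from the same values as the comparison, so that a pairing is not established. The main fit, and the p-values and SEs in the Results, did not use the number. The comparison was also fitted with this number as a block.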

Additional observations from a re-analysis of the deposited data

How the results depend on the processing

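With 3 arrays a group, 0 of 50 deubiquitinase genes passed the adjusted threshold in limma, in every alternative but array weights (4 genes). The 19 genes lower in Mef2c-deficient cells at an unadjusted p under 0.05 became 6 with quantile normalization, 4 with cyclic loess, 6 centred on kept probe sets, 10 with the methods' t-test (0 after Benjamini-Hochberg), 2 centred on the genes tested, and 7 to 32 with single arrays left out. These were 12%, 8%, 12%, 20% and 4% of the 50 in turn, against 11.1%, 10.2%, 10.7%, 16.9% and 6.48% of all genes. With single arrays left out they were 14% to 64%, against 12.4% to 23.7% of all genes. The 1 higher gene became 4 with no filter, 0 at the 60th percentile filter, 3 centred on kept probe sets, 2 with trend and robust variance, 6 centred on the genes tested, and 0 to 2 with single arrays left out. Of all genes, 8.32%, 3.15%, 14.0%, 5.79% and 20.2% were higher in these settings in turn, and 2.12% to 7.07% with single arrays left out. The median of -0.85 became -0.44, -0.39 and -0.39 with quantile normalization, cyclic loess and centring on the genes tested, and stayed between -1.0 and -0.66 with single arrays left out. In the fit with replicate number as block, 21 genes (42%) were lower and 1 (2%) higher, against 23.1% and 6.72% of all genes. The smallest limma adjusted p among the 50 was 0.0758 in that fit, and no adjusted call changed. The sign of the difference was kept in all alternatives by 43 of the 50 genes. It turned in at least 1 setting for Otub1, Otud6b, Usp2 and Usp11, and also for Usp3 with the mean of its probe sets (-0.00498), for Tnfaip3 without Mef2c-deficient replicate 3 (0.0792, with -1.05 without control replicate 3 at the other end) and for Otud1 centred on the genes tested (0.00694). The cause of these changes was not tested. Bacterial spike-in probes (bioB) had a mean log2 of 15.50 to 17.06 on Mef2c-deficient and 14.26 to 14.58 on control arrays, and the part of this in the scaling was not tested.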
